A study of Mus musculus with 6 samples.

Results

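The collagen family was read out in cultured fibroblasts from mouse embryos with both, a single or no intact Cas exon 2. Its members were the probe sets whose only gene symbol in the platform annotation consists of Col, a chain type number, the letter a and a chain number. A probe set is a group of short probes on the array that match 1 transcript. This rule gave 82 of the 45101 probe sets, which stand for 42 of the 18193 named genes. By chain type, 11 genes were fibrillar collagens, 6 were basement membrane (type IV) collagens, 9 were FACIT collagens and 16 were other types. FACIT stands for fibril-associated collagens with interrupted triple helices. Of the 42 genes, 28 had a probe set bright enough to be tested, namely 10 fibrillar, 4 basement membrane, 5 FACIT and 9 other genes, and 14 did not. Col6a6, Col21a1 and Col28a1 were not analysed here.

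Collagens are secreted proteins in which polypeptide chains wind around each other into a triple helix. Fibrillar collagens (types I, II, III, V, XI and others) assemble into the banded fibrils that give connective tissue its strength, type IV collagen forms the network of basement membranes, FACIT collagens decorate fibrils, and type VI collagen forms beaded microfilaments around cells. Fibroblasts are the main source of fibrillar collagen in loose connective tissue and sense the matrix through integrin adhesions. Cas (p130Cas, gene symbol Bcar1) is a docking protein of those adhesions.

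The cells came from intercrosses of heterozygous mice, and were grown from what was left of each embryo at 12.5 days post coitum once the head and inner organs had been taken for genotyping. Such a culture is a mix of mesenchymal cells of many body sites. The wild-type cells were Cas exon 2+/+, the heterozygous cells Cas exon 2+/∆ and the homozygous cells Cas exon 2∆/∆, with 2 embryos and 2 arrays each. The labels give the strain as B6 for 5 of the arrays (no strain for the first wild-type array), and state no treatment. All cultures were grown with 10% serum. The design compares homozygous cells with both other genotypes. All values are log2 intensities after quantile normalization of the 6 arrays, and a difference of 1 on this scale is a 2-fold difference. In every list of array values, the first value of a genotype is its replicate 1 and the second its replicate 2.

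Bcar1 itself lay at 9.37 and 8.42 (wild type), 8.19 and 8.32 (heterozygotes) and 8.08 and 8.43 (homozygotes), so it did not separate the genotypes, and where its probe sets lie relative to the deleted exon is not given in the labels. Embryo sex, read from 2 genes, differed between the groups. Xist, the RNA that silences an X chromosome in females, lay between 8.82 and 10.29 on the first wild-type array and both heterozygote arrays, and between 3.70 and 5.31 on the other 3. Eif2s3y, a Y-linked gene, lay between 1.24 and 3.61 on those first 3 arrays and between 8.37 and 8.76 on the others. Homozygotes and heterozygotes thus differed in embryo sex as well as in genotype, and the parts of sex and genotype in that comparison cannot be told apart. The wild-type arrays were split between the sexes, so the comparisons with wild type were not balanced for sex either. The first wild-type array was the lowest of the 6 for 16 of the 28 tested collagen genes (57.1%), against 26.6% of all 11373 genes tested. Values without it are therefore given beside the results that rest on it.

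No collagen gene passed the threshold in any comparison between genotypes, and neither did any other gene. In limma's test with Benjamini-Hochberg adjustment and a threshold of 0.05, 0 of 22519 probe sets passed in each of the 4 comparisons (0%). Before adjustment, the number of probe sets with p under 0.05 was 560 for homozygotes against the mean of both other genotypes, 855 for homozygotes against wild type, 488 for homozygotes against heterozygotes and 1185 for heterozygotes against wild type. What follows describes the measured levels and differences, and the 4 comparisons share arrays. In a mixed culture, fewer cells of a type and less RNA per cell cannot be told apart.

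**Figure D1:**
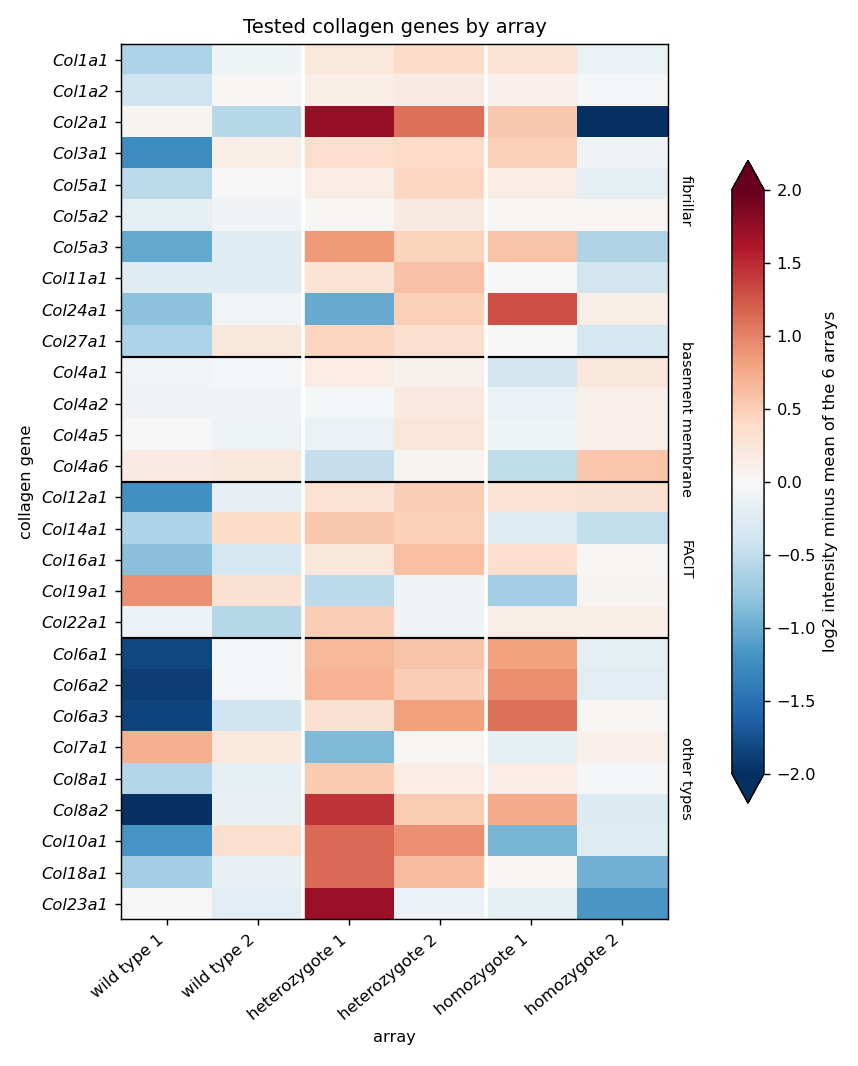
Each row is a tested collagen gene and each column an array, and the colour is the log2 intensity minus the mean of the 6 arrays, on a scale that ends at -2 and 2. Most rows are red in both heterozygote columns and blue in the first wild-type column, and the Col4a1, Col4a2 and Col4a5 rows are pale.

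Most collagen genes had their highest level in heterozygotes. The mean of the heterozygote arrays was the highest of the 3 genotype means for 23 of the 28 tested collagen genes (82.1%), against 34.2% of all genes. Both heterozygote arrays lay above all 4 other arrays for 9 collagen genes (32.1%), against 5.2% of all genes. These 9 were Col1a2, Col2a1, Col5a1, Col11a1, Col27a1, Col14a1, Col8a1, Col10a1 and Col18a1. The counts use the brightest probe set of a gene. On a second tested probe set the lower heterozygote array was below another genotype's array for Col1a2 (13.17 against 13.32), Col27a1 (5.81 against 6.24) and Col14a1 (5.63 against 5.73). The dimmest tested Col8a1 probe set overlapped too. The lower heterozygote array exceeded the other 4 by only 0.0025 for Col5a1, 0.0036 for Col8a1 and 0.027 for Col1a2. For the rest of the 9 that margin ran from 0.094 (Col27a1) to 0.60 (Col18a1). The median standard deviation between replicates of the collagens was 0.23. Col10a1 passed the intensity filter only through its heterozygote arrays. Relative to each gene's own mean, the median collagen lay at -0.60 and -0.08 on the wild-type arrays, 0.30 and 0.40 on the heterozygote arrays, and 0.12 and -0.06 on the homozygote arrays. The median range over the 6 arrays was 1.52 log2 units for the collagen genes and 0.72 for all genes.

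Between heterozygotes and wild type, 25 of the 28 collagen genes had a difference above 0 and 3 had one below 0, with a median of 0.66, while the median of all genes was 0.00. The arrays did not overlap, heterozygotes being above, for 22 of the 28 genes, where the background over all genes was 17.6%, and heterozygotes were below without overlap for 3 genes, with a background of 18.4%. At an unadjusted p under 0.05 in limma's fit there were 10 collagen genes with higher values in heterozygotes (2.37% of all genes) and 2 with lower values (1.95% of all genes). The 22 and the 10 include Col10a1, and the 3 and the 2 include Col19a1. Each passed the filter only through the group where it was high. The 22 also include Col22a1, which passed only through its arrays with a deleted allele. The smallest adjusted p of a collagen gene was 0.838. Without the first wild-type array the median was 0.39, with 24 of 29 genes above 0, and without the second it was 0.90. With a covariate for embryo sex it was 1.09, but that sex term was set almost alone by the difference between the wild-type arrays. With a median shift of the arrays in place of quantile normalization, 22 genes lay above 0 and 6 below.

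Between homozygotes and heterozygotes the direction was the opposite, with 24 of 28 collagen genes below 0 in homozygotes and a median of -0.23 (all genes -0.01). Homozygote arrays lay below both heterozygote arrays without overlap for 10 genes (background 12.4%) and above them for 0 (background 10.5%). At an unadjusted p under 0.05 in limma's fit, 5 genes were lower (background 0.95%) and 0 higher (background 0.994%), and the adjusted p was 1 for every collagen gene. The 10 and the 5 both include Col10a1, which passed the filter only through its heterozygote arrays. The median was -0.45 without the first homozygote array and -0.13 without the second, and with any other array left out it lay between these. A covariate for embryo sex gave -1.02, but its sex term was set almost alone by the wild-type arrays. That value therefore cannot part sex from genotype here.

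Between homozygotes and wild type, collagen genes lay on both sides of 0. In homozygotes 19 of the 28 genes were above 0 and 9 below, with a median of 0.19 (all genes -0.02), and the split was 16 to 12 with a median shift of the arrays. Without overlap, 7 genes were above (background 12.5%) and 2 below (background 14.3%). The 7 include Col24a1, which passed the filter only through its homozygote arrays. They also include Col22a1, which passed only through its arrays with a deleted allele. At an unadjusted p under 0.05 in limma's fit there were 3 genes above (background 1.66%) and 1 below (background 1.62%), with a smallest adjusted p of 0.973. The 1 below was Col19a1, which passed the filter only through its wild-type arrays and is also among the 2 without overlap. The median was 0.063 without the first wild-type array and 0.43 without either the second wild-type or the second homozygote array.

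Homozygotes against the mean of both other genotypes, the comparison of the design, gave collagen values on both sides of 0, with 15 genes above, 13 below and a median of 0.02. The class medians were 0.01 for the fibrillar genes, -0.01 for type IV, 0.20 for the FACIT genes and 0.08 for the other types. Both homozygote arrays lay outside the range of the 4 others for 0 collagen genes, where the background was 3.16% above and 3.61% below. An unadjusted p under 0.05 was reached by 0 collagen genes in limma's fit, against 1.1% of all genes above and 1.09% below, and the adjusted p was 1 for each. On the deposited scale without any normalization, 10 genes lay above 0 and 18 below. With a covariate for embryo sex the median was -0.44, again with a sex term set almost alone by the wild-type arrays.

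**Figure D2:**
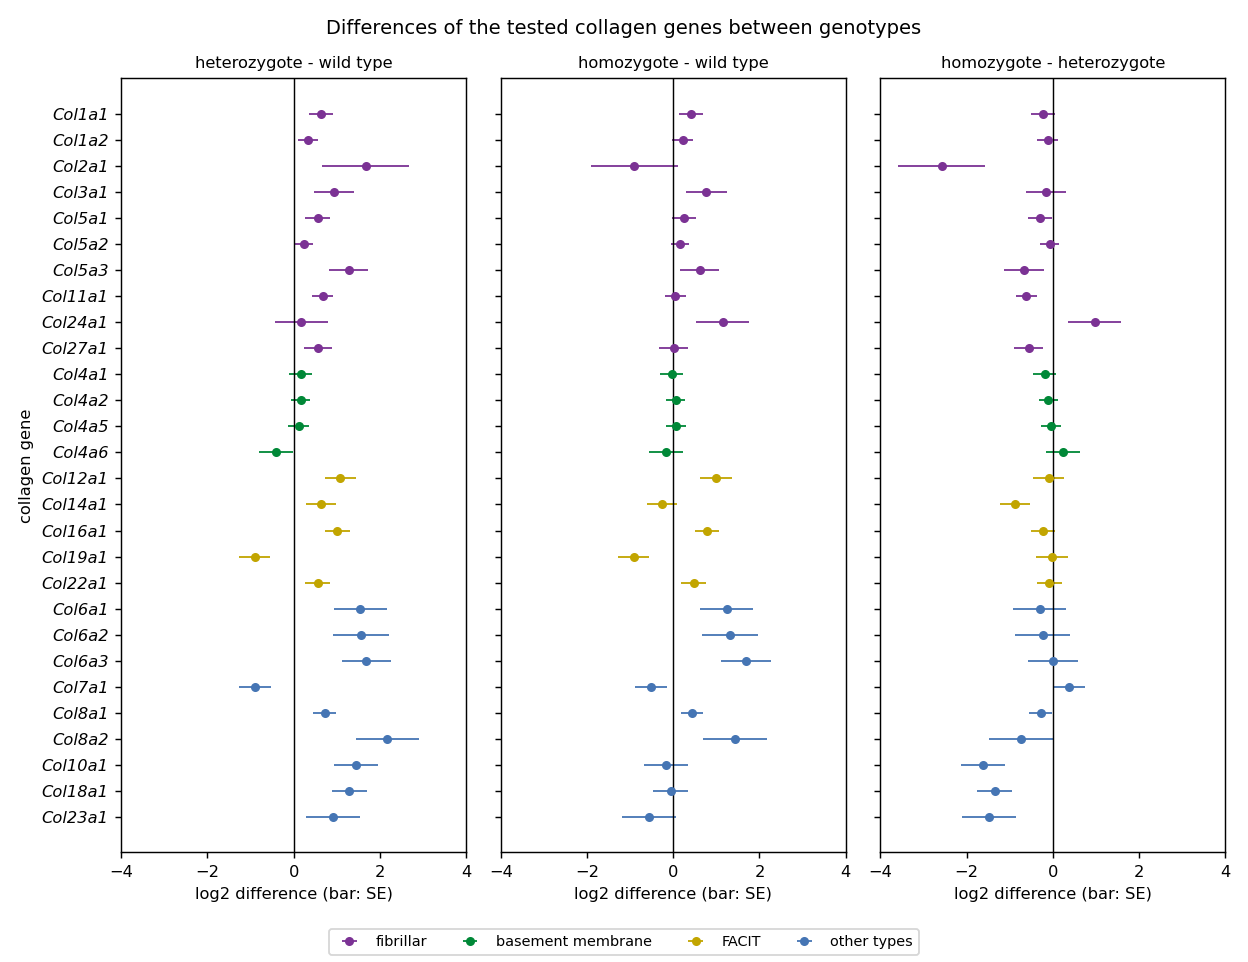
Each point is the difference of a tested collagen gene between genotypes in log2 units, the bars are the standard error from limma's fit, and colours mark the collagen class. In the heterozygote minus wild type panel 25 of 28 points lie right of 0, in the homozygote minus heterozygote panel 24 of 28 lie left of it, and the type IV points lie between -0.41 and 0.24 in all panels.

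Type I collagen, made of Col1a1 and Col1a2 chains, is the main fibril protein of skin, bone and tendon. Col1a1 lay at 12.46 and 12.98 (wild type), 13.28 and 13.43 (heterozygotes) and 13.34 and 12.93 (homozygotes). Both heterozygote arrays were above both wild-type arrays, and the homozygote arrays overlapped both other groups' range. The difference of heterozygotes from wild type was 0.64 (SE 0.28), or 1.56 times, and 0.39 without the first wild-type array. A second Col1a1 probe set, which lay at 10.21 and 9.68 (wild type), 10.43 and 9.38 (heterozygotes) and 10.26 and 10.68 (homozygotes), gave -0.04 for that difference and 0.56 for homozygotes minus heterozygotes, where the brighter probe set gave -0.22. The Col1a1 probe sets thus differed in the order of the genotype means. Without the second heterozygote array the values of the second probe set were 0.48 and 0.042, and without the first they were -0.56 and 1.09. On the brighter probe set homozygotes minus heterozygotes was -0.017 without the second homozygote array.

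Col1a2 lay at 12.92 and 13.33 (wild type), 13.45 and 13.48 (heterozygotes) and 13.42 and 13.28 (homozygotes). On this probe set the heterozygote arrays were the top pair by a small margin, and the first wild-type array was the lowest. On a second Col1a2 probe set the first heterozygote array, 13.17, was below the first homozygote array, 13.32. Heterozygotes differed from wild type by 0.34 (SE 0.24), which was 0.13 without the first wild-type array. Homozygotes differed from the mean of both other genotypes by 0.051 (SE 0.21), or -0.051 without that array.

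Type III collagen, a homotrimer of Col3a1 chains, is a partner of type I in extensible tissues. Col3a1 lay at 11.83 and 13.22 (wild type), 13.44 and 13.47 (heterozygotes) and 13.57 and 13.01 (homozygotes). The first wild-type array stood well below the other 5, which lay within 0.56 of each other. The difference of heterozygotes from wild type was 0.93 (SE 0.47), or 1.91 times, and 0.24 without that array. A second Col3a1 probe set had the same order of wild-type and heterozygote arrays with a wider spread, at 7.70 and 10.08 (wild type), 10.65 and 11.00 (heterozygotes) and 10.93 and 9.49 (homozygotes), and a difference of 1.94, which was 0.74 without the first wild-type array.

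Type V collagen starts type I fibrils and limits their width. Col5a1, its main chain, lay at 11.67 and 12.21 (wild type), 12.36 and 12.63 (heterozygotes) and 12.36 and 12.03 (homozygotes), so that heterozygotes were above wild type without overlap. The difference was 0.56 (SE 0.28), and 0.29 without the first wild-type array. Col5a2, which pairs with Col5a1, had narrower values of 12.96 and 13.06 (wild type), 13.16 and 13.32 (heterozygotes) and 13.16 and 13.17 (homozygotes). Its wild-type arrays were the 2 lowest, and the difference of heterozygotes was 0.23 (SE 0.21), against 0.90 on a second probe set, where it was 0.35 without the first wild-type array. Col5a3, a rarer chain, lay at 6.92 and 7.70 (wild type), 8.79 and 8.38 (heterozygotes) and 8.51 and 7.34 (homozygotes). Both heterozygote arrays were above both wild-type arrays by 1.27 (SE 0.46) on average, with an unadjusted p of 0.0314 and an adjusted p of 0.838 in limma's fit. The Col5a3 difference was 0.87 without the first wild-type array. Col3a1 and Col5a2 are neighbouring genes in the RefSeq annotation of GRCm38.p6, and their differences of heterozygotes from wild type were 0.93 and 0.23.

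Type XI collagen does in cartilage what type V does elsewhere. Col11a1 lay at 9.72 and 9.72 (wild type), 10.24 and 10.54 (heterozygotes) and 9.95 and 9.59 (homozygotes). Heterozygotes were highest on both arrays, and homozygotes and wild type overlapped. They exceeded wild type by 0.67 (SE 0.24) with an unadjusted p of 0.0321, and homozygotes minus heterozygotes was -0.62 (SE 0.24) with an unadjusted p of 0.0426. Neither passed after limma's adjustment. The Col11a1 difference was 0.66 without the first wild-type array.

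Type II collagen is the main fibril protein of cartilage. Col2a1 lay at 5.86 and 5.25 (wild type), 7.55 and 6.91 (heterozygotes) and 6.35 and 2.96 (homozygotes). The second homozygote array was far below the other 5, and the heterozygote arrays were the 2 highest. The values gave -2.57 (SE 1.01) for homozygotes minus heterozygotes and -1.74 (SE 0.87) for homozygotes minus the mean of both other genotypes. Without the second homozygote array these were -0.88 and -0.043. Among markers of cartilage cells, 7 of 8 (Acan, Matn1, Matn3, Hapln1, Cnmd, Sox5 and Sox6) were below the intensity filter. Sox9, a transcription factor that drives the type II gene, was tested and lay at 6.21 and 6.62 (wild type), 7.36 and 7.09 (heterozygotes) and 6.96 and 6.98 (homozygotes), with its heterozygote arrays also the highest. The summed intensity of the 8 cartilage markers ran from 192 (second homozygote array) to 264 (second heterozygote array). Its part in the Col2a1 values was not tested.

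Col27a1 and Col24a1 are the minor fibrillar chains. Col27a1 had its highest values in heterozygotes, at 6.43 and 7.28 (wild type), 7.47 and 7.37 (heterozygotes) and 7.04 and 6.69 (homozygotes), with a difference from wild type of 0.57 (SE 0.33) that was 0.14 without the first wild-type array. A second Col27a1 probe set gave 1.12 for that difference, and -0.00094 without the same array. There the second heterozygote array, 5.81, was below the second wild-type array, 6.24. Col24a1 lay at 3.82 and 4.59 (wild type), 3.63 and 5.13 (heterozygotes) and 5.93 and 4.77 (homozygotes). It had the highest value of homozygotes minus the mean of the other genotypes in the family, 1.06 (SE 0.53), but its second homozygote array lay between the heterozygote arrays. The value was 0.69 without the first heterozygote array and 1.63 without the second homozygote array. Without the first homozygote array Col24a1 was below the filter and was not tested. Its wild-type and heterozygote means, 4.20 and 4.38, were below the filter floor of 4.57, so it was tested only through its homozygote arrays.

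**Figure D3:**
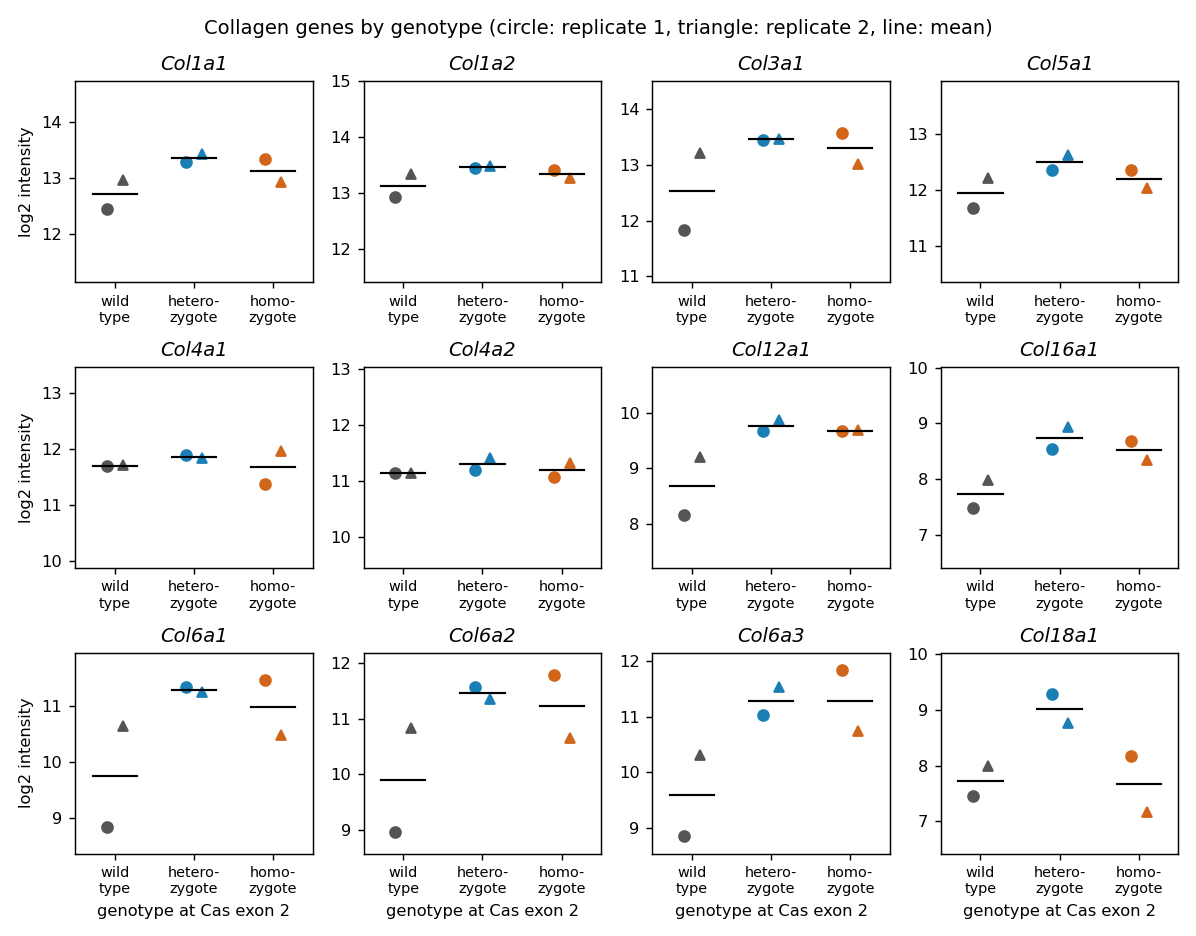
Log2 intensity of 12 collagen genes by genotype, with a circle for replicate 1, a triangle for replicate 2 and a line at their mean; each vertical axis has its own range. The first wild-type circle is well below the rest for Col3a1, Col12a1, Col6a1, Col6a2 and Col6a3. The heterozygotes stand above the other arrays for Col18a1, and the 6 arrays of Col4a1 and Col4a2 span 0.60 and 0.33.

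Type IV genes differed little between the arrays, with spans of 0.60, 0.33 and 0.36 for Col4a1, Col4a2 and Col4a5 and 1.05 for Col4a6. Col4a1, whose chain forms the common basement membrane network with Col4a2, lay at 11.69 and 11.73 (wild type), 11.90 and 11.84 (heterozygotes) and 11.38 and 11.97 (homozygotes). Homozygotes held both the lowest and the highest value, and the heterozygote arrays lay just above the wild-type arrays. Col4a2, its neighbour on the chromosome, lay at 11.14 and 11.14 (wild type), 11.19 and 11.41 (heterozygotes) and 11.07 and 11.32 (homozygotes), again with the heterozygotes just above wild type and the homozygotes on both sides. Heterozygotes differed from wild type by 0.16 (SE 0.27) for Col4a1 and 0.16 (SE 0.22) for Col4a2. The Col4a2 value was 0.27 and 0.057 without the first and the second heterozygote array. A second Col4a1 probe set gave -0.0073, and 0.26 and -0.27 without the same arrays. Col4a5 and Col4a6, whose chains join in the basement membranes of smooth muscle and kidney, are neighbours on the X chromosome. Col4a5 spanned 9.69 to 10.05 over the 6 arrays. Col4a6 lay at 5.05 and 5.12 (wild type), 4.41 and 4.94 (heterozygotes) and 4.39 and 5.44 (homozygotes), with both heterozygote arrays below wild type (a difference of -0.41, SE 0.39, and -0.14 without the first heterozygote array) and homozygotes on both sides. The class median of heterozygotes minus wild type was 0.14 with 3 of 4 genes above 0, but -0.05 with 0 of 4 above 0 under a median shift of the arrays, so its direction depends on the scaling.

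Among the FACIT genes, Col12a1, Col16a1 and Col22a1 had all 4 arrays with a deleted allele above both wild-type arrays. Col22a1, however, passed the filter only through those 4 arrays. Type XII collagen sits on type I fibrils of tendon and ligament and bears tension. Col12a1 lay at 8.17 and 9.21 (wild type), 9.66 and 9.87 (heterozygotes) and 9.67 and 9.69 (homozygotes). Its first wild-type array was the lowest, 1.04 below the next. The differences from wild type were 1.08 (SE 0.36) in heterozygotes and 0.99 (SE 0.36) in homozygotes, with unadjusted p of 0.0231 and 0.0324 and adjusted p of 0.838 and 0.973 in limma's fit. Without the first wild-type array the differences were 0.56 and 0.46.

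Type XVI collagen joins fibrils to other matrix proteins. Col16a1 lay at 7.49 and 7.98 (wild type), 8.55 and 8.94 (heterozygotes) and 8.68 and 8.35 (homozygotes), again with all 4 arrays of the deletion genotypes above wild type. The differences were 1.01 (SE 0.29) in heterozygotes, or 2.01 times, and 0.78 (SE 0.29) in homozygotes, or 1.72 times. Their unadjusted p were 0.0113, the smallest among the brightest probe sets of the collagen genes in heterozygotes minus wild type, and 0.0322, and neither passed after limma's adjustment. Without the first wild-type array the differences were 0.75 and 0.53.

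Type XIV collagen (undulin) also binds fibrils. Col14a1 lay at 6.70 and 7.68 (wild type), 7.85 and 7.79 (heterozygotes) and 7.06 and 6.82 (homozygotes). On this probe set the heterozygote arrays were the 2 highest, and the wild-type arrays were spread across the range. On a second Col14a1 probe set the second heterozygote array, 5.63, was below the second wild-type array, 5.73. Homozygotes minus heterozygotes was -0.88 (SE 0.35) with an unadjusted p of 0.044 in limma's fit. Col19a1 ran the other way from most of the family, at 5.68 and 5.08 (wild type), 4.24 and 4.71 (heterozygotes) and 4.09 and 4.83 (homozygotes). Wild type was above both other genotypes without overlap, with a difference of -0.90 (SE 0.36) for heterozygotes minus wild type and -0.92 (SE 0.36) for homozygotes minus wild type. The heterozygote value was -0.60 without the first wild-type array, and the homozygote value -0.55 without the first homozygote array. The heterozygote and homozygote means, 4.48 and 4.46, were below the filter floor of 4.57. Col19a1 was thus tested only because its wild-type arrays were high, and no conclusion is drawn from these differences. Col22a1, with a mean of 4.59, was the tested collagen gene nearest the filter floor of 4.57. It lay at 4.47 and 4.02 (wild type), 5.08 and 4.52 (heterozygotes) and 4.72 and 4.73 (homozygotes), above wild type on every array of the deletion genotypes. The differences were 0.56 (SE 0.29) in heterozygotes and 0.48 (SE 0.29) in homozygotes, which were 0.34 and 0.26 without the second wild-type array. Col22a1 was below the filter on leaving out the first heterozygote array or either homozygote array. Its wild-type mean, 4.24, was below the floor. Col22a1 was thus tested only because its arrays with a deleted allele were high, and no conclusion is drawn from these differences.

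The 3 main chains of type VI collagen shared their lowest and their highest array. Col6a1, Col6a2 and Col6a3 combine into 1 molecule, and each is needed for its secretion. Col6a1 lay at 8.84 and 10.64 (wild type), 11.33 and 11.25 (heterozygotes) and 11.47 and 10.49 (homozygotes). Col6a2 lay at 8.98 and 10.82 (wild type), 11.56 and 11.36 (heterozygotes) and 11.79 and 10.65 (homozygotes), and Col6a3 at 8.87 and 10.32 (wild type), 11.02 and 11.54 (heterozygotes) and 11.83 and 10.74 (homozygotes). For each chain the first wild-type array was the lowest, at least 1.45 below the other 5, and the first homozygote array was the highest. Col6a1 and Col6a2 put the 6 arrays in the same order, and in Col6a3 the second wild-type and second homozygote arrays changed places, as did the heterozygote arrays.

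Both heterozygote arrays were above both wild-type arrays for all 3 type VI chains. The differences were 1.55 (SE 0.61) for Col6a1, 1.56 (SE 0.65) for Col6a2 and 1.68 (SE 0.57) for Col6a3, which are 2.92, 2.95 and 3.22 times. Their unadjusted p in limma's fit were 0.0434, 0.0506 and 0.0241, with an adjusted p of 0.838 each. Without the first wild-type array the differences were 0.65, 0.64 and 0.95, and without the second they were 2.43, 2.47 and 2.40. Homozygotes exceeded wild type without overlap for Col6a3 only, by 1.69 (SE 0.57), or 0.96 without the first wild-type array. For Col6a1 and Col6a2 homozygotes minus wild type was 1.24 and 1.32, and 0.34 and 0.40 without that array. Without the first homozygote array they were 0.76 and 0.76.

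The type VI chains shared their lowest and highest arrays, but Col3a1 had the same lowest and highest arrays, so this was not particular to type VI. The bases upstream of the type VI starts are shown. Those of Col18a1 are added, since its heterozygote arrays stood farthest above the other 4. Col6a1 and Col6a2 are neighbours on chromosome 10, and Col6a3 lies on chromosome 1. The sequences are from RefSeq on GRCm38.p6, printed 5′ to 3′ on the gene's strand, which is the minus strand for all 4. They cover chr10:76726045-76726294 for Col6a1, chr10:76623631-76623880 for Col6a2, chr1:90844002-90844221 for Col6a3 and chr10:77166531-77166780 for Col18a1, and end at the base before the annotated start (for Col6a3, 30 bases that lie inside the gene were left out). Capitals mark matches, on either strand, to CCAAT, to the GC box GGGCGG, to TATAAA or to the AP-1 motif TGACTCA, and no match overlaps another.
Col6a1: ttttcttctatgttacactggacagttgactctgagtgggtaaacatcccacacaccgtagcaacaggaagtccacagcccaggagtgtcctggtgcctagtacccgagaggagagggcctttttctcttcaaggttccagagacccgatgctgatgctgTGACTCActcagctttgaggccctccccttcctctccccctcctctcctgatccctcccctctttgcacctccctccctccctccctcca
Col6a2: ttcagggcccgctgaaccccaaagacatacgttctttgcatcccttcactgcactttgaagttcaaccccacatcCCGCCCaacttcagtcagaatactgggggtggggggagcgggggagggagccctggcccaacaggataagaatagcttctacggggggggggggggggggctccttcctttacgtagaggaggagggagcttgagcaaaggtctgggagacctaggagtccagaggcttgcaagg
Col6a3: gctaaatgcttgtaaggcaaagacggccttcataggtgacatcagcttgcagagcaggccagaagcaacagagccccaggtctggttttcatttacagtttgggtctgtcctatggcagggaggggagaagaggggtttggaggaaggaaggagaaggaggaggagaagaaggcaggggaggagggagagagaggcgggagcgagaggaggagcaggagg
Col18a1: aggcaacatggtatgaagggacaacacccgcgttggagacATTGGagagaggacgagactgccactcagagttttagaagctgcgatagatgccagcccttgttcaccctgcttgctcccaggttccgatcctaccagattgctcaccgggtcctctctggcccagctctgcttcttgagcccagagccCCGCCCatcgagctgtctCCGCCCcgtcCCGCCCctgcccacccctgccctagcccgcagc

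The type VI windows shared none of the motifs. Col6a1 held an AP-1 motif 90 to 84 bases before its start, Col6a2 held a GC box, and Col6a3 held none of the 4. Col18a1 held a CCAAT box and 3 GC boxes. RefSeq windows of 250 bases were at hand for 33 of the 42 collagen genes, 36 windows in all. GGGCGG was in 58.3% of the collagen windows and in 32.7% of all 32851 windows. CCAAT was in 36.1% against 33.8%, TATAAA in 13.9% against 12.4%, and TGACTCA in 2.78% (Col6a1 alone) against 4.46%. These are counts of letters in a window, not of bound sites.

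Type VIII collagen is a short-chain, network-forming type of vessels and the cornea. Col8a1 lay at 11.05 and 11.46 (wild type), 12.17 and 11.80 (heterozygotes) and 11.79 and 11.60 (homozygotes), with both heterozygote arrays above the other 4, the lower one by only 0.0036. On its dimmest probe set the heterozygotes (8.56 and 7.70) overlapped both wild type (7.36 and 7.80) and homozygotes (7.59 and 8.39). Heterozygotes minus wild type was 0.72 (SE 0.26), and 0.52 without the first wild-type array. Col8a2 lay at 4.31 and 6.41 (wild type), 8.0 and 7.07 (heterozygotes) and 7.31 and 6.28 (homozygotes). The first wild-type array was below the filter floor of 4.57, and heterozygotes were above wild type without overlap. Its difference of 2.17 (SE 0.74), or 4.52 times, was the highest of the family in that comparison, and 1.12 without that array.

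Type XVIII collagen, a basement membrane proteoglycan and the source of endostatin, had the widest gap between the heterozygote arrays and the others. Col18a1 lay at 7.46 and 7.99 (wild type), 9.27 and 8.76 (heterozygotes) and 8.16 and 7.17 (homozygotes). Both heterozygote arrays were above the highest of the other 4, the lower one by 0.60, and wild type and homozygotes overlapped. A second probe set, at 6.68 and 6.87 (wild type), 8.60 and 8.13 (heterozygotes) and 7.28 and 6.39 (homozygotes), had the same order of arrays, with 1.59 for heterozygotes minus wild type and -1.53 for homozygotes minus heterozygotes. On the brighter probe set heterozygotes exceeded wild type by 1.29 (SE 0.40), and homozygotes minus heterozygotes was -1.35 (SE 0.40). The unadjusted p in limma's fit were 0.0175 and 0.0147, and the adjusted p were 0.838 and 1. The heterozygote difference was 1.01 without the first wild-type array. Homozygotes minus the mean of both other genotypes was -0.70 (SE 0.35), among the 3 smallest unadjusted p below 0 in the family. Without the second homozygote array it was -0.20, and homozygotes minus heterozygotes was -0.85.

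Col10a1, the short-chain collagen of hypertrophic cartilage, lay at 3.63 and 5.15 (wild type), 5.96 and 5.73 (heterozygotes) and 3.88 and 4.57 (homozygotes). Both heterozygote arrays were the highest, followed by the second wild-type array. Homozygotes minus heterozygotes was -1.61 (SE 0.51) with an unadjusted p of 0.019 in limma's fit, and heterozygotes minus wild type was 1.45 (SE 0.51), or 0.70 without the first wild-type array. Its wild-type and homozygote means, 4.39 and 4.23, were below the filter floor of 4.57. Col10a1 was thus tested only because its heterozygote arrays were high, and no conclusion is drawn from these differences. Col23a1, a transmembrane collagen, lay at 4.93 and 4.72 (wild type), 6.66 and 4.82 (heterozygotes) and 4.75 and 3.78 (homozygotes). One heterozygote array stood above the other 5, so the difference of 0.92 (SE 0.62) from wild type rests on it and was -0.0035 without it.

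Col7a1, whose anchoring fibrils hold epidermis to dermis, lay at 6.93 and 6.40 (wild type), 5.31 and 6.22 (heterozygotes) and 6.0 and 6.30 (homozygotes). Like Col19a1 it was lower in heterozygotes than in wild type without overlap, with a difference of -0.90 (SE 0.37) and -0.44 without the first heterozygote array. Homozygotes were also below both wild-type arrays, with a difference of -0.52, and -0.25 without the first wild-type array.

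The 14 collagen genes below the filter were Col4a3, Col4a4, Col6a4, Col6a5, Col9a1, Col9a2, Col9a3, Col11a2, Col13a1, Col15a1, Col17a1, Col20a1, Col25a1 and Col26a1. Their brightest probe sets lay between 1.08 and 5.33 on single arrays. Nearest the floor of 4.57 was Col9a1 with a mean of 4.54. Col15a1, which bridges fibrils near basement membranes, lay at 3.86 and 3.55 (wild type), 5.07 and 4.46 (heterozygotes) and 4.82 and 4.27 (homozygotes). Its 4 arrays with a deleted allele were above both wild-type arrays, but the levels are dim and were not tested. Of the 82 probe sets, 38 were below the filter. Among 14 genes with several tested probe sets, these differed in sign or by over 0.5 for 5 genes in heterozygotes minus wild type, 3 in homozygotes minus wild type, 1 in homozygotes minus heterozygotes and 0 in homozygotes minus the mean of both.

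Replicates of a genotype differed too. The second wild-type array was above the first for 20 of 28 collagen genes, by a median of 0.51 (all genes 0.05). The second homozygote array was below the first for 9 of 10 fibrillar genes and above it for 4 of 4 type IV genes, with a median difference over all collagens of -0.33. Of the highest values, 10 collagen genes had theirs on the first heterozygote array, 9 on the second, 5 on the first homozygote array, 2 on the first wild-type array, 2 on the second homozygote array and 0 on the second wild-type array. The part of embryo sex in these values was not tested.

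The genes that make and handle collagen were described from 6 lists, and 0 of their genes passed the adjusted threshold in limma's fit in any comparison. The modification list holds the enzymes and chaperones that hydroxylate, fold and export procollagen. Of its 24 genes, 21 were tested, and 20 of them were above 0 in heterozygotes minus wild type (median 0.24), or 14 with a median of 0.07 without the first wild-type array. Homozygotes minus the mean of both other genotypes had 16 genes above 0 and 5 below (median 0.10), and 9 above with a median of -0.03 without that array. P4ha3, a prolyl hydroxylase subunit, lay at 6.74 and 7.37 (wild type), 7.79 and 7.34 (heterozygotes) and 7.80 and 7.67 (homozygotes). The homozygote arrays overlapped the heterozygotes, with 0.42 (SE 0.26) for homozygotes against the mean, and 0.26 without the first wild-type array. Plod2, a lysyl hydroxylase, gave -0.31 (SE 0.23) in the same comparison, and -0.18 and -0.19 without the first homozygote and the second heterozygote array. Mia3, which loads procollagen into transport carriers, gave 0.19 (SE 0.20), and 0.015 without the first homozygote array.

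The list of procollagen cleavage and crosslinking enzymes had 9 of 13 genes tested and no common direction, with 4 above 0 and 5 below for heterozygotes minus wild type (median -0.08) and the same split for homozygotes against the mean (median -0.09). Both medians turned sign on leaving out the first heterozygote array, to 0.09 and 0.02. Tll1, a tolloid-like protease that trims procollagen ends, lay at 9.35 and 7.39 (wild type), 7.13 and 7.41 (heterozygotes) and 5.94 and 7.31 (homozygotes). Its first wild-type array was the highest and its first homozygote array the lowest, with -1.19 (SE 0.61) for homozygotes against the mean. That value was -0.70 without the first wild-type array and -0.51 without the first homozygote array. Adamts3 gave 0.53 (SE 0.70), which turned to -0.59 without the first homozygote array and ran up to 1.65 without the second. Bmp1 gave -0.13 (SE 0.20), and -0.21 and -0.049 without the first and the second heterozygote array.

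Fibril partners, mostly small leucine-rich proteoglycans and thrombospondins that bind collagen fibrils, were tested for 10 of 12 genes. All 10 were above 0 in heterozygotes minus wild type (median 1.27), and 9 of 10 (median 0.34) without the first wild-type array, on which the list's median lay 1.69 below its mean over the arrays. In homozygotes against the mean 8 were above 0 and 2 below (median 0.64), and 6 above without that array or without the first homozygote array (median 0.20 each). Dcn (decorin), which binds type I fibrils, lay at 8.76 and 10.42 (wild type), 10.93 and 11.01 (heterozygotes) and 12.11 and 11.44 (homozygotes). Both homozygote arrays were the highest and the first wild-type array the lowest, and homozygotes minus the mean was 1.50 (SE 0.47), with an unadjusted p of 0.0184 and an adjusted p of 1 in limma's fit. Thbs2, a matricellular thrombospondin, gave 0.81 (SE 0.42), and 0.53 without the first wild-type and 0.51 without the first homozygote array. Lum (lumican) gave 1.50 (SE 0.87), and 0.87 and 0.32 without those arrays.

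Collagen receptors were tested for 6 of 9 genes, with 5 above 0 in heterozygotes minus wild type (median 0.41, and 0.26 without the first wild-type array) and 4 below 0 in homozygotes against the mean (median -0.05, and from -0.10 to 0.06 on leaving out each array). Mrc2 (Endo180), which takes up collagen for breakdown, lay at 8.05 and 8.68 (wild type), 9.04 and 8.98 (heterozygotes) and 8.01 and 8.34 (homozygotes). Both heterozygote arrays were above the other 4, and homozygotes minus heterozygotes was -0.84 (SE 0.29) with an unadjusted p of 0.0252 in limma's fit. Lair1, an inhibitory collagen receptor of leukocytes, gave 0.74 (SE 0.33) for homozygotes against the mean, and Ddr1, a collagen-binding receptor kinase, gave -0.069 (SE 0.20). The Ddr1 value ran from -0.15 to 0.0065 on leaving out each array, and was above 0 without the first heterozygote array only.

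Collagen-cutting proteases were tested for 5 of 7 genes, and all 5 were above 0 in heterozygotes minus wild type (median 0.71, and 0.25 with 4 of 5 above 0 without the first wild-type array). Homozygotes against the mean had 4 above and 1 below (median 0.23, which was 0.05 without the first wild-type array and 0.02 without the first homozygote array). Ctsk, a lysosomal collagenase, gave 0.41 (SE 0.35) in that comparison, and 0.21 without the first wild-type and 0.021 without the first homozygote array. The collagenase Mmp13 gave 0.75 (SE 0.75), and ran from 0.14 without the first heterozygote array to 1.35 without the second. The membrane-bound Mmp14 gave 0.23 (SE 0.27), and 0.017 without the first wild-type array. Basement membrane partners of type IV collagen, such as laminins, nidogens and perlecan, were tested for 10 of 11 genes, with 9 above 0 in heterozygotes minus wild type (median 0.40) and 5 on each side in homozygotes against the mean (median -0.02, and from -0.19 to 0.18 on leaving out each array). Lama5, a laminin chain, gave -0.60 (SE 0.28), perlecan (Hspg2) gave -0.30 (SE 0.25) and Lama2, another laminin chain, gave 0.38 (SE 0.34). Without the first homozygote array the first pair were -0.29 and -0.047, and Hspg2 was -0.19 without the second heterozygote array. The Lama2 value was 0.92 without the first homozygote array and turned to -0.16 without the second.

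**Figure D4:**
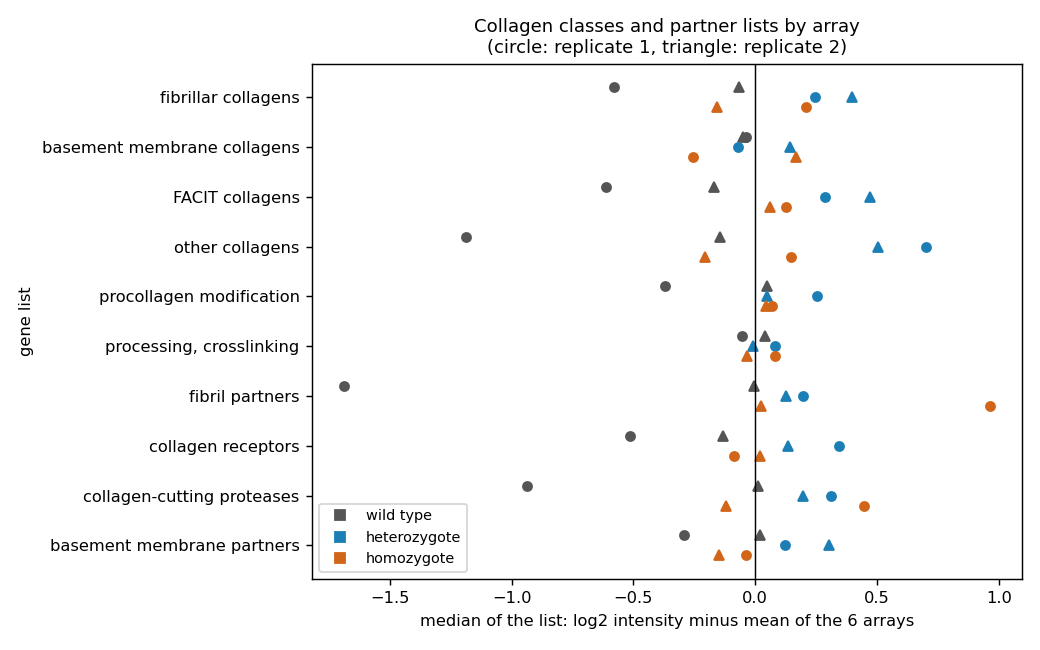
For each collagen class and partner list, the horizontal axis gives the median over its tested genes of the log2 intensity minus the gene's mean of the 6 arrays, with a circle for replicate 1 and a triangle for replicate 2 of each genotype. The first wild-type array is lowest for every list except the type IV collagens, and reaches -1.69 for the fibril partners.

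Markers of the cell types in such cultures also differed between the arrays. All 9 mesenchymal markers were tested, and 7 were above 0 in heterozygotes minus wild type (median 0.59, and 0.18 without the first wild-type array). Their median lay at -0.55 and -0.10 on the wild-type arrays, 0.13 and 0.28 on the heterozygote arrays, and 0.17 and 0.02 on the homozygote arrays, the same lowest array as for the collagens. Pdgfra, a growth factor receptor of fibroblasts, lay at 6.80 and 8.45 (wild type), 8.84 and 9.38 (heterozygotes) and 10.44 and 8.32 (homozygotes), lowest on the first wild-type array and highest on the first homozygote array. The list did not share that order, since its median was highest on the second heterozygote array. Prrx1, Twist1 and Cdh11 were also higher on the first homozygote array than on the second, but Thy1, Pdgfrb and S100a4 were lower. Of 5 smooth muscle markers 4 were tested, and all 4 were below 0 in heterozygotes minus wild type (median -0.83). Macrophage markers were tested for 9 of 10 genes, and their summed intensity came to 2466 and 5739 (wild type), 4636 and 4097 (heterozygotes), and 12580 and 6013 (homozygotes). The part of these cell types in the collagen values was not tested.

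Other marker lists had few genes above the filter. All 4 tendon markers were tested and were above 0 in homozygotes against the mean (median 0.83). One of them, Thbs4, was below the filter without the first homozygote array. The tested genes were 3 of 6 for endothelium (median 0.26 in that comparison), 3 of 7 for epithelium (-0.40), 4 of 6 for Schwann and neural cells (-1.25), 1 of 6 for skeletal muscle (0.54) and 0 of 6 for osteoblasts. Without the first wild-type array, the endothelial gene Emcn and the Schwann gene Sox10 were below the filter. Sox10 was also below it without the second heterozygote array. No conclusion is drawn from these medians. Among the epithelial genes below the filter were Cdh1, Krt5 and Krt14, and among the endothelial ones Pecam1 and Cdh5. Their part in the collagen values was not tested.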

How the data were processed

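Total RNA (2 µg per array, per the labels) of 6 cultures was hybridised to Affymetrix mouse arrays. The authors deposited 1 linear intensity per probe set. Scanner software, probe summary, scaling and genome build were not given in the sources used here. Intensities became log2(intensity + 1.78), the 10th percentile of all values being the pseudocount, so folds of dim genes are understated. Array medians spanned 0.29, above a limit of 0.1, and arrays were quantile normalized, which removes overall shifts. Of 45037 non-control probe sets, the upper 50% by mean (22519, floor 4.57) were tested with limma 3.58.1 in R 4.3.3 (lmFit, eBayes, 3 residual and 3.28 prior degrees of freedom), with Benjamini-Hochberg adjustment over all of them. A gene is its brightest probe set with exactly 1 symbol (34945 had 1, 932 several, 9160 none). The 2 arrays of a genotype came from separate embryos, and their number limits the precision. Errors are standard errors (SE) of the fit. The fit was tested on simulated data.

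Members, lists and tests were chosen with earlier results of these data known. Values on every array are given for a fixed list of collagen genes and those with the smallest unadjusted p in each direction of a comparison, and up to 3 genes by that p were named from each other list. Promoter windows came from a RefSeq table, without the 50 bases after the start. Deviations of like-numbered arrays correlated at -0.40, -0.15 and -0.16, and replicate numbers were not used to pair arrays in the main fit. Whether like-numbered arrays shared a preparation cannot be told from these values.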

Additional observations from a re-analysis of the deposited data

How the results depend on the processing

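The 0 calls in each comparison and the signs of the collagen medians were kept with a pseudocount of 16, no intensity filter, the upper 75% of probe sets, the mean of a gene's probe sets, an intensity trend and the replicate block, and no collagen gene passed the threshold under any alternative run. With the replicate number as a block there were 0 calls in each comparison, and the collagen median of heterozygotes minus wild type was 0.66. A median shift in place of quantile normalization turned the median of homozygotes against the mean of both other genotypes to -0.0076, and Col4a5 to -0.024 there. Without scaling, the median of all genes lay at 0.11 in heterozygotes minus wild type and -0.12 in homozygotes minus heterozygotes, and the value of homozygotes against the mean turned sign for 5 of 28 genes, Col1a2 (-0.010), Col5a2 (-0.026), Col8a1 (-0.032), Col4a5 (-0.064) and Col4a6 (-0.011).

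A covariate for embryo sex made 1 call in heterozygotes minus wild type, not a collagen, where the collagen median was 1.09, and gave collagen medians of -1.02 for homozygotes minus heterozygotes and -0.44 for homozygotes against the mean. In the last comparison it turned the sign of 14 of 28 genes, Col1a1 (-0.43), Col1a2 (-0.34), Col3a1 (-1.02), Col5a2 (-0.047), Col4a2 (0.023), Col12a1 (-0.46), Col6a1 (-1.29), Col6a2 (-1.28), Col6a3 (-0.61), Col8a1 (-0.32), Col8a2 (-1.70), Col16a1 (-0.20), Col19a1 (0.20) and Col7a1 (0.46). The cause was not tested, and in that fit the wild-type arrays, 1 of each sex, almost alone set the sex term. Detection calls were not used here, so how far dim genes stood above background is not known.

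Leaving out each array in turn gave 0 to 3 calls in heterozygotes minus wild type, 0 to 3 in homozygotes minus heterozygotes, 0 to 2 in homozygotes against the mean and 0 in homozygotes minus wild type. The collagen medians ran from 0.39 to 0.90, from -0.45 to -0.13, from -0.07 to 0.08 and from 0.063 to 0.43 in that order. The value of homozygotes against the mean crossed 0 for 15 of 28 genes, with ranges of Col1a1 -0.10 to 0.31, Col1a2 -0.051 to 0.15, Col3a1 -0.047 to 0.64, Col5a1 -0.18 to 0.14, Col5a2 -0.0052 to 0.079, Col5a3 -0.62 to 0.56, Col4a1 -0.41 to 0.19, Col4a2 -0.15 to 0.098, Col4a5 -0.079 to 0.10, Col4a6 -0.49 to 0.56, Col6a1 -0.025 to 0.95, Col6a2 -0.025 to 1.10, Col7a1 -0.30 to 0.16, Col8a1 -0.024 to 0.18 and Col8a2 -0.18 to 0.88. With 1 array left in a genotype, its spread was taken from the other genotypes. The cause was not tested.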
